A study of Homo sapiens with 24 samples.

Results

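Amino acids cross the plasma membrane through solute carrier (SLC) proteins, and the mRNAs of 10 of these carriers were followed here in neuroblastoma cell lines, which derive from a childhood tumour of the sympathetic nervous system. The 10 genes were SLC7A11, SLC3A2, SLC7A5, SLC7A1, SLC7A3, SLC1A4, SLC1A5, SLC38A1, SLC38A2 and SLC6A9. They were taken by symbol from 1 comparison table per line. All 10 were listed for LAN5, SK-N-FI and SK-N-BE(2), and 9 were listed for IMR5, where SLC7A3 was absent. The whole tables held 33561 (LAN5), 30271 (IMR5), 32760 (SK-N-FI) and 29328 (SK-N-BE(2)) genes.

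The lines were grown without treatment or with 1 µM GSK-J4 for 72 hours, and GSK-J4 is an inhibitor of the histone H3 lysine demethylases KDM6A and KDM6B. Per the labels, LAN5 and IMR5 are MYCN-amplified and sensitive to the compound, SK-N-FI is sensitive with wild-type MYCN, and SK-N-BE(2) is MYCN-amplified and resistant. Each line had 3 untreated and 3 treated polyadenylated RNA libraries, 24 in all. With 1 resistant line and 1 line without amplified MYCN, the line and its status cannot be told apart.

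Some of these carriers work in pairs. SLC3A2 (4F2hc, CD98) is a glycoprotein that carries no amino acid itself; it takes a light chain of the SLC7 family to the cell surface, and the light chain decides what is carried. With SLC7A11 (xCT) it imports cystine in exchange for glutamate, the source of cysteine for glutathione, and with SLC7A5 (LAT1) it imports leucine and other large neutral amino acids. SLC1A5 (ASCT2) and SLC1A4 (ASCT1) exchange small neutral amino acids, SLC38A1 and SLC38A2 (SNAT1 and SNAT2) take up glutamine and alanine with sodium, SLC7A1 and SLC7A3 (CAT1 and CAT3) carry arginine and lysine, and SLC6A9 (GlyT1) carries glycine. Many of these genes are known targets of ATF4, the transcription factor that cells use when amino acids run short or proteins misfold. The ATF4 binding site known as CARE has the letters TGATGNAA.

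The sites below are shown because 5 members had CARE letters near a start site and 4 had letters of the antioxidant response element, TGACNNNGC, which NRF2 (NFE2L2) binds with a small MAF partner. They were found in the RefSeq promoter table on GRCh38.p14, in windows from 250 bases before to 50 bases after each start, searched on both strands. The plan had named the bases before the start alone, so the 50 bases after it depart from that plan. Before the start alone, 1 member had CARE letters and 3 had those of the antioxidant response element. The table matched 8 of the 10 members with 14 start sites, and not SLC7A11 and SLC7A3. Each sequence runs 5′ to 3′ on the gene's own strand, with the motif in capitals. The first 5 lines hold CARE and the other 4 the antioxidant response element.
SLC1A4, CARE on the opposite strand, plus strand gene, chr2:64989381-64989410: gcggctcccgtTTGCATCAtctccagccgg
SLC3A2, CARE on the opposite strand, plus strand gene, chr11:62881719-62881748: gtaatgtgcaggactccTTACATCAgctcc
SLC38A1, CARE, minus strand gene, chr12:46266502-46266531: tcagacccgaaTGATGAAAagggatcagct
SLC7A1, CARE, minus strand gene, chr13:29595663-29595692: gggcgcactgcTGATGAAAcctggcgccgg
SLC1A5, CARE, minus strand gene, chr19:46784893-46784922: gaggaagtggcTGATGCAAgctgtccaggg
SLC3A2, antioxidant response element, chr11:62881652-62881681: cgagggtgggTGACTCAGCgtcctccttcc
SLC7A1, antioxidant response element, chr13:29595754-29595783: tgcccggcggTGACGCGGCcgagcgggccg
SLC7A5, antioxidant response element, minus strand gene, chr16:87869490-87869519: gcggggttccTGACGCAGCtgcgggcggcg
SLC1A5, antioxidant response element on the opposite strand, chr19:46787385-46787414: cctggatcttGCGAGGTCAgctcccgctcc

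CARE letters were in 5 of the 14 member windows of 300 bases and in 3.62% of all 35116 promoter windows of that length. Only the SLC1A5 site lay wholly before its start: with the 250 bases before the start alone, 1 of 14 windows held CARE against 3.14% of all. The SLC1A4 and SLC38A1 sites ran across the start site, and those of SLC3A2 and SLC7A1 lay after it. The antioxidant response element letters were in 4 of 14 windows of 300 bases against 13.3% of all, and in 3 of 14 against 10.9% before the start alone. The E-box CACGTG, which MYC proteins bind, was in 2 of 14 windows, those of SLC7A5 and SLC1A5, against 7.26% of all windows of 300 bases. No site overlapped another. The starts used for SLC3A2, SLC1A4, SLC38A1 and SLC1A5 lie inside the gene bounds given below, and that of SLC7A1 at the 5′ end of the gene. These matches describe letters only, and no binding was measured.

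With GSK-J4, all 10 transporter mRNAs rose in LAN5, 7 of 9 in IMR5 and 8 of 9 tested in SK-N-FI, and none of 9 tested in SK-N-BE(2) was called. Calls rest on an adjusted p under 0.05 in the authors' deposited tables (DESeq2's Wald test, Benjamini-Hochberg adjustment). Of all genes tested in LAN5, 22.5% were called higher and 19.2% lower. The same shares were 22.6% and 21.6% for IMR5, 16.8% and 14.8% for SK-N-FI, and 1.62% and 0.858% for SK-N-BE(2). These shares include many weakly expressed genes. Of the 11145 LAN5 genes whose mean reached 100, 3141 were called higher and 4330 lower. The same counts were 3690 and 3875 of 10864 in IMR5, and 2722 and 2630 of 10909 in SK-N-FI. In SK-N-BE(2) they were 203 and 111 of 10926. In each line both shares were larger for such genes than for all genes tested. The members and the gene lists below were chosen with earlier results of these data known, so their counts are no independent evidence. The single member called lower was SLC38A2, in IMR5. In SK-N-BE(2) 3 of the 9 members had an unadjusted p under 0.05, as did 10.3% of the 13407 genes tested in that line. The median log2 fold change of the tested members was 1.67 (LAN5), 1.09 (IMR5), 0.61 (SK-N-FI) and -0.03 (SK-N-BE(2)) in the authors' deposited tables. The same median over all genes tested was 0.09, 0.02, 0.01 and -0.00 in these tables. Called higher in all 3 sensitive lines were 6 members, SLC7A11, SLC3A2, SLC7A5, SLC1A4, SLC1A5 and SLC6A9, where 5.01% of the 18599 genes tested in all 3 lines were called higher in each and 5.83% lower in each.

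The direction of the fold changes is not stated in the tables and was read as GSK-J4 over untreated. BBC3, a gene that the compound is known to induce, is positive in the 3 sensitive lines, and MT2A and SLC30A1 have the same sign in SK-N-BE(2) as in the other lines. A table read in the wrong direction would turn every sign given for its line. For SK-N-FI, the name of the table resembles the line's name without matching it, so all values of that line rest on the assignment. Values of single libraries were not used, so the depth of each library is unknown and replicate values cannot be shown. Instead, the level of a gene in each condition was estimated from the mean over the 6 libraries of a line and its fold change, with the summed means of a line scaled to 1000000 (CPM). Fold values and levels below use fold changes from which the shrinkage of DESeq2's prior was removed, since it differed between lines. The error beside an estimated level reflects the error of the fold change alone.

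**Figure D1:**
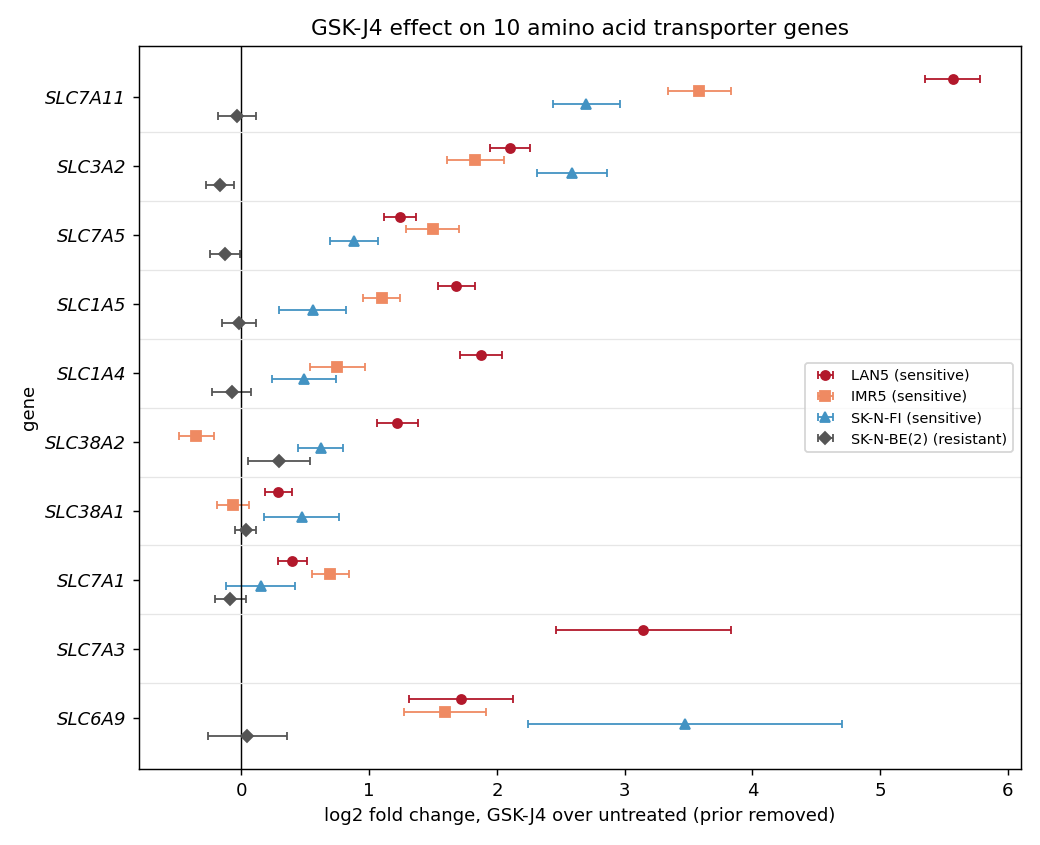
Prior-removed log2 fold changes (x axis, GSK-J4 over untreated) of the 10 genes (y axis) in the 4 lines, with 95% intervals as bars; members with a mean under 10 in a line are left out. SLC7A11 runs from 5.57 in LAN5 to -0.03 in SK-N-BE(2), and SLC38A2 lies below 0 in IMR5 alone.

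The cystine carrier SLC7A11 (ENSG00000151012, GRCh38 chromosome 4, 138164097 to 138242349, minus strand) rose in each sensitive line. Its estimated level went from 14.9 ± 0.808 CPM untreated to 706 ± 38.3 treated in LAN5, from 8.33 ± 0.511 to 99.9 ± 6.12 in IMR5 and from 13.6 ± 0.893 to 88.2 ± 5.80 in SK-N-FI. In SK-N-BE(2) it was 55.7 ± 2.05 untreated and 54.5 ± 2.00 treated. Before treatment the resistant line thus held the highest level, 6.69 times that of IMR5, and LAN5 and SK-N-FI differed by about the size of their errors. After treatment SK-N-BE(2) held the lowest level and the level of LAN5 was 12.97 times as high. These levels come from tables that were normalized separately, so their order across lines is a description.

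The log2 fold change of SLC7A11 was 5.51 ± 0.110 in LAN5 in the authors' deposited table, with an adjusted p listed as 0 and the largest Wald statistic of the table. It was 3.53 ± 0.123 in IMR5 (adjusted p = 3.59e-177, rank 9 by the statistic) and 2.64 ± 0.131 in SK-N-FI (5.75e-87, rank 15) in the authors' deposited tables. SK-N-BE(2) had -0.03 ± 0.0622 (adjusted p = 0.95) in the authors' deposited table. With the prior removed, the change was 47.5-fold in LAN5 (95% interval 40.8 to 55.2), 11.99-fold in IMR5 (10.1 to 14.2) and 6.497-fold in SK-N-FI (5.41 to 7.80). The ratio in SK-N-BE(2) was 0.977 (0.882 to 1.08). The equations that remove the prior may not hold for this line. Their other solution gave a log2 change of -0.165 ± 0.366, so a rise above 1.08-fold is not excluded.

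SLC3A2 (ENSG00000168003, chromosome 11, 62856102 to 62888875, plus strand), the heavy chain shared by these carriers, rose with a different order of lines. Its estimated level went from 84.7 ± 3.36 to 364 ± 14.4 CPM in LAN5, from 57.1 ± 3.17 to 203 ± 11.3 in IMR5 and from 62.5 ± 4.28 to 375 ± 25.7 in SK-N-FI. SK-N-BE(2) had 110.3 ± 3.10 untreated, the highest of the 4 lines, and 98.1 ± 2.76 treated, the lowest. LAN5 and SK-N-FI thus ended within 1 error of each other. The log2 fold change in the authors' deposited tables was 2.09 ± 0.0806 for LAN5 (adjusted p = 1.03e-145), 2.52 ± 0.136 for SK-N-FI (1.52e-73) and 1.81 ± 0.112 for IMR5 (6.61e-57). The value of SK-N-BE(2) was -0.15 ± 0.0512 in the authors' deposited table, with an unadjusted p of 0.00326 and an adjusted p of 0.0976, so it was not called. The prior-removed changes were 4.29-fold for LAN5 (3.85 to 4.79), 5.998-fold for SK-N-FI (4.96 to 7.25), 3.56-fold for IMR5 (3.05 to 4.15) and 0.890 for SK-N-BE(2) (0.823 to 0.962).

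SLC7A5 (ENSG00000103257, chromosome 16, 87830023 to 87869488, minus strand), the light chain for leucine, had the highest estimated untreated level per kilobase among the SLC7 light chains in every line. Its estimated level was 165 CPM in untreated and 390 in treated LAN5, 76.9 and 217 in IMR5, 104 and 191 in SK-N-FI, and 227 and 207 in SK-N-BE(2). On the log2 scale it rose by 1.48 ± 0.103 in IMR5 (adjusted p = 1.3e-44), 1.24 ± 0.0644 in LAN5 (5.18e-80) and 0.87 ± 0.0945 in SK-N-FI (2.1e-18), per the authors' deposited tables. SK-N-BE(2) had -0.12 ± 0.0529 (adjusted p = 0.373) in the authors' deposited table. Treated LAN5 lay above both levels of SK-N-BE(2), and treated SK-N-FI below both.

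**Figure D2:**
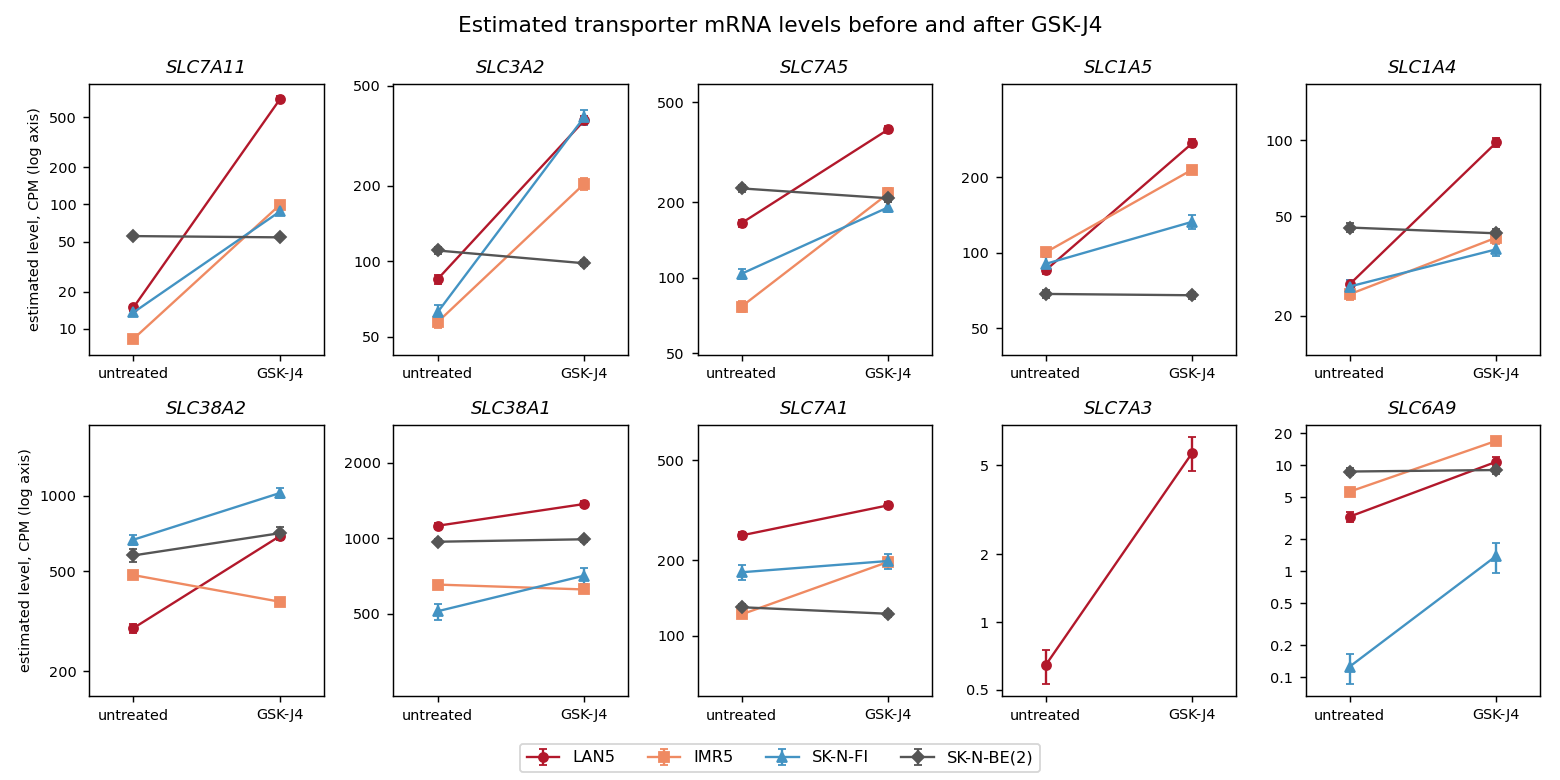
Estimated mRNA level of each gene (y axis, CPM, log scale with its own range in each panel) without and with GSK-J4 (x axis), 1 line of points per cell line; bars are the errors from the fold change. SLC7A11 crosses from highest in untreated SK-N-BE(2) to highest in treated LAN5.

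Because SLC3A2 pairs with several light chains, the levels of SLC7A5, SLC7A6, SLC7A7, SLC7A8, SLC7A10 and SLC7A11 were set side by side per kilobase of exon sequence, so that genes of different length can be compared. Their sum was 42.2 CPM per kilobase in untreated and 161 in treated LAN5, 21.5 and 58.9 in IMR5, 28.3 and 53.6 in SK-N-FI, and 58.8 and 54.4 in SK-N-BE(2). SLC3A2 on the same scale was 16.4 and 70.2 in LAN5, 11.03 and 39.3 in IMR5, 12.1 and 72.4 in SK-N-FI, and 21.3 and 18.9 in SK-N-BE(2). The makeup of the sum shifted toward the cystine light chain in the sensitive lines. SLC7A11 was 3.66% ± 0.282 of the sum in untreated and 45.3% ± 0.314 in treated LAN5, so it came close to SLC7A5, whose share was 82.6% and then 50.9%. In IMR5 the SLC7A11 share was 4.01% ± 0.348 and then 17.6% ± 0.279, and in SK-N-FI 4.97% ± 0.417 and then 17.1% ± 0.354. In both, SLC7A5 kept about the same share, 75.2% and then 77.6% in IMR5 and 77.3% and then 75.1% in SK-N-FI. The share of SLC7A6, a light chain for cationic and neutral amino acids, went from 19.9% to 4.63% in IMR5 and from 11.95% to 4.62% in SK-N-FI. Some smaller shares shrank too, that of SLC7A8 from 4.31% to 2.05% in SK-N-FI and that of SLC7A7 from 0.754% to 0.136% in IMR5. By the authors' deposited tables, SLC7A8 was not called in SK-N-FI (adjusted p = 0.644), nor was SLC7A7 in IMR5 (0.143). In LAN5 the SLC7A8 share instead rose from 0.101% to 0.528%. SLC7A8 was called higher in LAN5 (log2 3.68 ± 0.384, adjusted p = 1.65e-20) and in IMR5 (adjusted p = 0.0141) in the authors' deposited tables. SLC7A7 was called higher in LAN5 (1.38 ± 0.267, adjusted p = 1.31e-06) in the authors' deposited table. SLC7A6 itself was called lower in LAN5 (log2 -0.35 ± 0.0969) and IMR5 (-0.64 ± 0.103) and not in SK-N-FI (-0.43 ± 0.197, adjusted p = 0.0845) in the authors' deposited tables. In SK-N-BE(2) the SLC7A11 share was 9.83% ± 0.278 untreated and 10.4% ± 0.305 treated. The shares are estimates of mRNA and carry no test. Their errors hold the mean of each gene as exact, which the errors beside the levels do not. The shares are therefore less certain than these errors show.

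**Figure D3:**
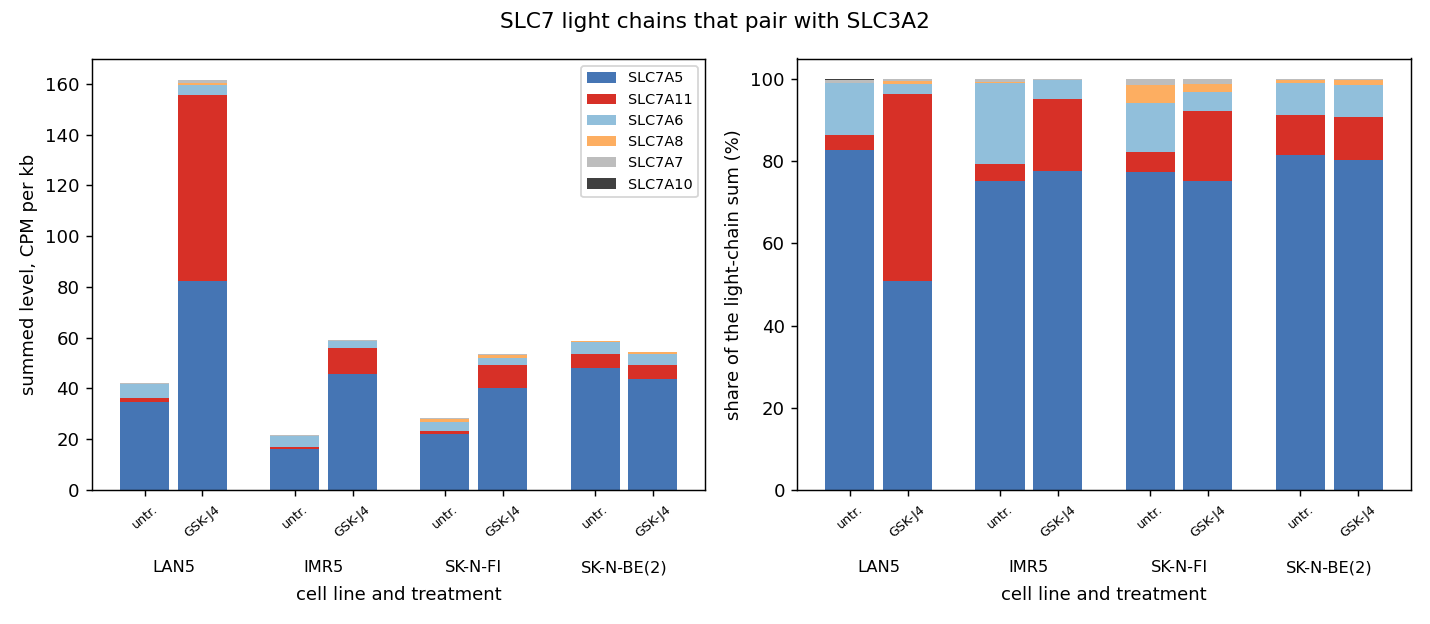
Stacked bars of the 6 SLC7 light chains that pair with SLC3A2, without (untr.) and with GSK-J4, for each line: summed CPM per kilobase on the left, percent of that sum on the right. The SLC7A11 part grows from 3.66% to 45.3% in LAN5 and lies at 9.83% and 10.4% in SK-N-BE(2).

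The exchangers of small neutral amino acids rose in all 3 sensitive lines, most in LAN5. SLC1A5 (ENSG00000105281, chromosome 19, 46774883 to 46788594, minus strand), the main glutamine exchanger of many tumour cells, had an estimated 85.1 CPM in untreated and 273 in treated LAN5, 100.3 and 214 in IMR5, 90.3 and 133 in SK-N-FI, and 68.5 and 67.7 in SK-N-BE(2). Here SK-N-BE(2) was lowest both before and after. The log2 fold change of SLC1A5 in the authors' deposited tables was 1.67 ± 0.0734 for LAN5 (adjusted p = 7.55e-113), 1.09 ± 0.0743 for IMR5 (7.04e-47) and 0.54 ± 0.130 for SK-N-FI (0.000189). SK-N-BE(2) had -0.01 ± 0.0586 (adjusted p = 0.973) in the authors' deposited table.

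SLC1A4 (ENSG00000115902, chromosome 2, 64988477 to 65023865, plus strand), which exchanges alanine, serine and cysteine, went from an estimated 26.7 to 98.2 CPM in LAN5, from 24.4 to 41.0 in IMR5 and from 26.2 to 36.9 in SK-N-FI. SK-N-BE(2) had 45.0 untreated and 42.7 treated. The 3 sensitive lines began close together, below SK-N-BE(2), and LAN5 alone ended far above it. The log2 fold changes were 1.87 ± 0.0842 (adjusted p = 1.17e-106), 0.74 ± 0.109 (8e-11), 0.48 ± 0.125 (0.000736) and -0.06 ± 0.0640 (0.869) in LAN5, IMR5, SK-N-FI and SK-N-BE(2) in the authors' deposited tables. Per kilobase, SLC1A5 made up 86.9% of the sum of this pair in untreated and 85.3% in treated LAN5, and 76.0% and 76.8% in SK-N-BE(2), so their balance moved little while the sum of the pair rose in LAN5.

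The sodium-coupled carriers SLC38A1 and SLC38A2 had the highest mean CPM per kilobase of the 10 members in each of the 4 tables. SLC38A2 (ENSG00000134294, chromosome 12, 46358189 to 46372867, minus strand), which cells are known to induce when amino acids are withdrawn, was called higher in LAN5 and SK-N-FI and lower in IMR5. Its estimated level was 297 CPM in untreated and 691 in treated LAN5, 482 and 377 in IMR5, 667 and 1025 in SK-N-FI, and 578 and 709 in SK-N-BE(2). LAN5 began lowest of the 4 lines and IMR5 ended lowest. The log2 fold change in the authors' deposited tables was 1.21 ± 0.0805 for LAN5 (adjusted p = 1.05e-49), 0.61 ± 0.0881 for SK-N-FI (8.68e-11) and -0.35 ± 0.0692 for IMR5 (1.79e-06). The SK-N-BE(2) value was 0.19 ± 0.0794 in the authors' deposited table. Its unadjusted p was 0.0172 and its adjusted p 0.279, so it was not called. The error lay near the largest of that line, 0.0828. Removing the prior gave 1.23-fold (1.04 to 1.45) or, by the other solution of the equations, a log2 change of 0.527. The size of that change is therefore uncertain.

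SLC38A1 (ENSG00000111371, chromosome 12, 46183063 to 46270017, minus strand), its neighbour on the same chromosome, had changes of smaller size in LAN5, IMR5 and SK-N-FI. Its estimated level was 1122 and 1370 CPM in LAN5, 654 and 626 in IMR5, 512 and 710 in SK-N-FI, and 969 and 991 in SK-N-BE(2), untreated and treated. By the authors' deposited tables it was called higher in LAN5 (log2 0.29 ± 0.0539, adjusted p = 5.17e-07) and SK-N-FI (0.46 ± 0.146, 0.00739). IMR5 (-0.06 ± 0.0644, 0.462) and SK-N-BE(2) (0.03 ± 0.0401, 0.914) were not called in the authors' deposited tables. Per kilobase, the SLC38A2 share of this pair was 28.6% ± 0.906 in untreated and 43.4% ± 0.585 in treated LAN5. These errors too hold the mean of each gene as exact, so the shares are less certain than they show. The share was 52.8% and 47.8% in IMR5, 66.4% and 68.6% in SK-N-FI, and 47.5% and 52.0% in SK-N-BE(2).

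Among the arginine and lysine carriers, SLC7A1 (ENSG00000139514, chromosome 13, 29509410 to 29595688, minus strand) rose modestly in the MYCN-amplified sensitive lines. Its estimated level was 251 and 331 CPM in LAN5, 122 and 197 in IMR5, 179 and 198 in SK-N-FI, and 130 and 122 in SK-N-BE(2), untreated and treated. The log2 fold change was 0.40 ± 0.0577 in LAN5 (adjusted p = 4.49e-11) and 0.69 ± 0.0743 in IMR5 (1.85e-19) in the authors' deposited tables. SK-N-FI (0.15 ± 0.133, 0.449) and SK-N-BE(2) (-0.08 ± 0.0534, 0.734) were not called in the authors' deposited tables. The prior-removed ratio in SK-N-FI had a 95% interval of 0.922 to 1.33.

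SLC7A3 (ENSG00000165349, chromosome X, 70925582 to 70931125, minus strand), the related carrier known mainly from brain, was tested in LAN5 alone. In the authors' deposited table for that line it rose by 2.85 ± 0.316 on the log2 scale (adjusted p = 3.01e-18) with a mean normalized count of 48.9. The prior-removed change was 8.85-fold (5.50 to 14.2), from an estimated 0.642 ± 0.110 to 5.68 ± 0.974 CPM. The authors' deposited tables gave it a mean normalized count of 1.95 (SK-N-FI) and 0.356 (SK-N-BE(2)) without an adjusted p. Per kilobase, SLC7A3 went from 0.861% to 5.51% of the sum of SLC7A1 and SLC7A3 in LAN5, so SLC7A1 mRNA stayed far more abundant.

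SLC6A9 (ENSG00000196517, chromosome 1, 43991500 to 44031467, minus strand), the glycine carrier, was weakly expressed and called higher in all 3 sensitive lines. Its estimated level was 3.28 ± 0.333 and 10.8 ± 1.10 CPM in LAN5, 5.64 ± 0.453 and 17.0 ± 1.37 in IMR5, 0.126 ± 0.0389 and 1.40 ± 0.431 in SK-N-FI, and 8.73 ± 0.673 and 9.02 ± 0.695 in SK-N-BE(2), untreated and treated. The log2 fold change in the authors' deposited tables was 2.26 ± 0.408 for SK-N-FI (adjusted p = 3.97e-07), 1.66 ± 0.200 for LAN5 (1.18e-15) and 1.55 ± 0.159 for IMR5 (3.79e-21). For SK-N-BE(2) the authors' deposited table gave 0.02 ± 0.0827 (adjusted p = 0.971). In SK-N-FI the mean normalized count was 12.3 in the authors' deposited table and the standard error lay near its ceiling, and removing the prior gives either 3.47 ± 0.628 or, by the other solution of the equations, 6.46, so the size of that change and the estimated levels are uncertain.

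Over the 9 members whose mean reached 10 in every line, SK-N-BE(2) had the highest estimated untreated level of 5 and IMR5 the lowest of 5. After treatment LAN5 had the highest level of 6 members and SK-N-BE(2) of none, while SK-N-BE(2) had the lowest level of 4. The tables were normalized separately, and these orders carry no test.

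**Figure D4:**
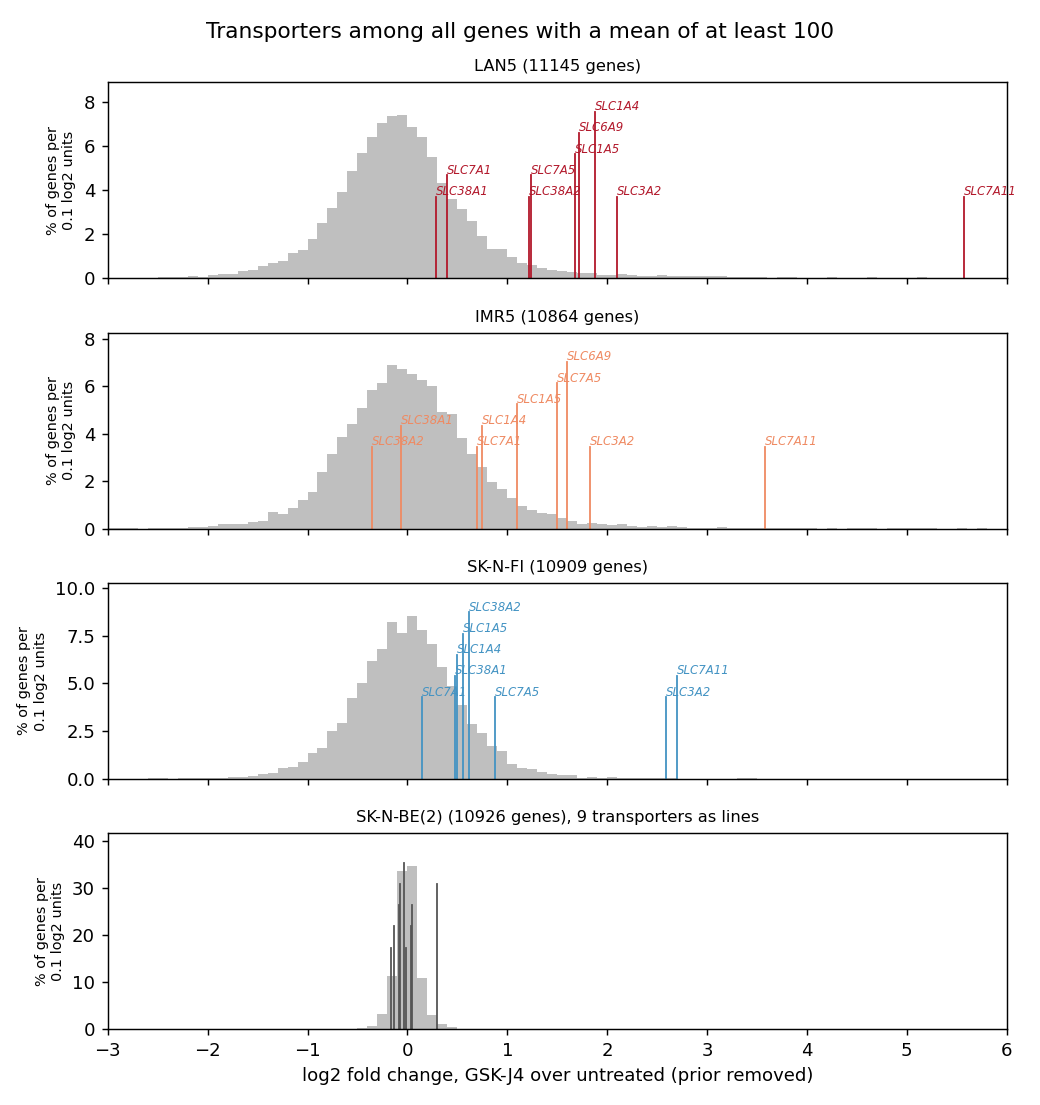
Percent of genes (y axis, per 0.1 log2 units) by prior-removed log2 fold change (x axis, GSK-J4 over untreated) over the genes of each line whose mean reached 100 (grey), with the members past that mean as coloured lines whose heights only keep the labels apart. In the sensitive lines members spread to the right as far as 5.57 for SLC7A11 in LAN5, and in SK-N-BE(2) 9 members sit between -0.17 and 0.30.

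The difference of the effect between the sensitive lines and SK-N-BE(2) was tested for the 8 members whose mean reached 100 in each of the 4 tables (two-sided Wald test on prior-removed fold changes, Benjamini-Hochberg adjustment over 8969 genes). The mean effect of the 3 sensitive lines was higher for 7 of the 8, while 26.4% of all genes compared were higher and 32.7% lower. The members' median difference was 1.12 on the log2 scale, and that of all genes compared was -0.04. The errors and p-values of these differences combine the errors within each line and leave out the spread among the sensitive lines. For SLC7A11 the effects in LAN5, IMR5 and SK-N-FI were 5.57, 3.58 and 2.70. SLC7A11 differed by 3.98 ± 0.104 (adjusted p computed as 0), the third largest absolute difference among the 8969 genes. SLC3A2 differed by 2.34 ± 0.0873 (adjusted p = 2.24e-155) and SLC7A5 by 1.34 ± 0.0792 (8.32e-62). The exchangers SLC1A5 and SLC1A4 differed by 1.13 ± 0.0889 (2.59e-35) and 1.12 ± 0.1005 (3.47e-27). SLC7A1 differed by 0.50 ± 0.0820 (5.8e-09) and SLC38A1 by 0.20 ± 0.0715 (0.0109). Both depend on the line: with SK-N-FI alone SLC7A1 was not called (0.24, adjusted p = 0.192), and with IMR5 alone SLC38A1 turned to -0.10 (0.27). SLC38A2, with 0.20 ± 0.132 (adjusted p = 0.183), was not called, and its 95% interval ran from -0.06 to 0.46. The mean of SLC7A3 was under 100 wherever it was listed, and that of SLC6A9 in SK-N-FI alone (12.3), so neither was included. With the minimum lowered to 10, over 12794 genes, SLC6A9 differed by 2.22 ± 0.276 (adjusted p = 1.52e-14). The same test gave 0.13 ± 0.264 (0.711) for LAN5 minus IMR5. It gave -1.82 ± 0.641 (0.0138) for the mean of LAN5 and IMR5 minus SK-N-FI, where the size of the SK-N-FI change is uncertain.

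The standard errors of SK-N-BE(2) had the lowest ceiling, 0.0828 against 0.539 in LAN5, and its Wald statistics were not exactly the ratio of fold change to error for 19488 genes, so its table may have been made differently. The equations then may not hold for it. With their other solution for every SK-N-BE(2) gene, the call of SLC7A1 was lost (1.06 ± 0.456, adjusted p = 0.112), and SLC38A1 turned to -0.26 ± 0.644 (0.859). The differences of SLC3A2 and SLC7A5 grew to 3.58 ± 0.482 (2.13e-11) and 2.21 ± 0.461 (7.3e-05), and SLC38A2, not called by either solution, went to -0.03 ± 0.226 (0.958).

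LAN5 and IMR5, both MYCN-amplified and sensitive, differed in 6 of the 8 members, 5 with the larger effect in LAN5 and 1 with the larger effect in IMR5. Of all genes compared, 27.3% were higher in LAN5 and 33.6% lower. SLC7A11 differed by 1.98 ± 0.167 (adjusted p = 6.45e-31), SLC38A2 by 1.57 ± 0.107 (2.81e-47) and SLC1A4 by 1.13 ± 0.139 (6.14e-15). SLC1A5 differed by 0.59 ± 0.105 (1.21e-07) and SLC38A1 by 0.35 ± 0.0843 (8.41e-05), while SLC7A1 went the other way at -0.30 ± 0.0945 (0.0035). SLC3A2 (0.27 ± 0.139, adjusted p = 0.0813, interval -0.00 to 0.54) and SLC7A5 (-0.26 ± 0.123, 0.0594, interval -0.50 to -0.02) were not called. Among the 8 members the difference between these lines was thus largest for the cystine carrier, followed by SLC38A2.

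SK-N-FI was compared with the mean of LAN5 and IMR5, and the errors again leave out the spread between those lines. Of the 8 members 5 had the larger effect in the MYCN-amplified lines and 2 in SK-N-FI, where 18.9% and 28.4% of all genes compared did. Larger in LAN5 and IMR5 were SLC7A11 by 1.88 ± 0.158 (adjusted p = 2.46e-30), SLC1A5 by 0.83 ± 0.143 (6.26e-08), SLC1A4 by 0.82 ± 0.146 (1.8e-07), SLC7A5 by 0.49 ± 0.114 (9.09e-05) and SLC7A1 by 0.40 ± 0.144 (0.0149). Larger in SK-N-FI were SLC3A2, at -0.62 ± 0.156 (0.000335), and SLC38A1, at -0.36 ± 0.156 (0.045). SLC38A2 was not called (-0.19 ± 0.104, adjusted p = 0.128), and this mean hides opposite signs: LAN5 alone minus SK-N-FI gave 0.60 ± 0.120 (3.38e-06) and IMR5 alone -0.97 (2.96e-16). With LAN5 alone the calls of SLC7A1 (0.25, adjusted p = 0.147) and SLC38A1 (-0.18, 0.337) were lost, and with IMR5 alone that of SLC1A4 (0.26, 0.2).

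The genes with the pattern most like SLC7A11 were found by the Euclidean distance over the 4 prior-removed log2 fold changes, over the same 8969 genes. They were STC2, a secreted glycoprotein induced by stress, at a distance of 1.21, the zinc exporter SLC30A1 at 1.89, the pseudokinase TRIB3 at 2.01, the steroid-metabolizing enzyme AKR1C3 at 2.17 and DDIT4, an inhibitor of mTORC1 signalling, at 2.36. STC2 had prior-removed changes of 5.13 (LAN5), 2.81 (IMR5), 3.52 (SK-N-FI) and -0.08 (SK-N-BE(2)). It thus came near SLC7A11 in LAN5 and stood above it in SK-N-FI.

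A further 33 amino acid carriers were grouped as plasma membrane carriers by known function, and the site of each protein was not checked. Of these, 4 were higher and 7 lower of 21 tested in LAN5, and 5 and 7 of 21 in IMR5. In SK-N-FI 3 were higher and 3 lower of 20. None of 11 was called in SK-N-BE(2), where 2 had an unadjusted p under 0.05 against 10.3% of all genes tested. Their median log2 fold change was 0.04, -0.21, 0.24 and 0.06 in the authors' deposited tables. Of all genes tested, 22.5% were called higher and 19.2% lower in LAN5, 22.6% and 21.6% in IMR5, and 16.8% and 14.8% in SK-N-FI. SLC6A15, a carrier of branched-chain amino acids in neurons, was higher in all 3 sensitive lines, with 0.21 ± 0.0646 (LAN5), 0.22 ± 0.0683 (IMR5) and 1.32 ± 0.106 (SK-N-FI) per the authors' deposited tables. SLC38A10 was lower in all 3, with -0.26 ± 0.0926, -1.09 ± 0.128 and -0.39 ± 0.108 in the authors' deposited tables. SLC7A2, another arginine carrier, was singled out after its values were seen: the authors' deposited table for SK-N-FI gave it a mean normalized count of 8803 and a log2 change of -0.79 ± 0.138 (adjusted p = 1.54e-07). It was also called lower in LAN5 (-0.87 ± 0.364, adjusted p = 0.0424, mean normalized count 20.2) and not called in IMR5 (-0.10 ± 0.0687, 0.266, mean 3907) or SK-N-BE(2) (0.06 ± 0.0539, 0.859, mean 1232) in the authors' deposited tables. Per kilobase, the sum of SLC7A1 and SLC7A3 in SK-N-FI changed by 0.15 ± 0.136 on the log2 scale, and with SLC7A2 added the sum changed by -0.55 ± 0.107.

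Transporters inside the cell were also counted. Of 8 lysosomal transporters, 2 were higher and 2 lower in LAN5, none higher and 5 lower in IMR5, and none higher and 4 lower in SK-N-FI. Of the mitochondrial carriers, 3 were higher and 4 lower of 12 tested in LAN5, 3 and 6 of 11 in IMR5, and 2 and 3 of 11 in SK-N-FI. The shares of all genes tested were 22.5% higher and 19.2% lower in LAN5, 22.6% and 21.6% in IMR5, and 16.8% and 14.8% in SK-N-FI. Both shares were larger for genes whose mean reached 100, as counted above. In SK-N-BE(2) none of the 8 lysosomal and 10 mitochondrial genes tested was called. There 1 of each list had an unadjusted p under 0.05, near the 10.3% of all genes. Lower in all 3 sensitive lines were SLC25A13, an aspartate and glutamate carrier, with -0.70 ± 0.0790, -1.12 ± 0.0868 and -0.43 ± 0.0883, and SFXN1, a mitochondrial serine carrier, with -0.23 ± 0.0802, -0.15 ± 0.0659 and -0.30 ± 0.0999, in the authors' deposited tables for LAN5, IMR5 and SK-N-FI.

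Imported cystine is reduced to cysteine, which is built into glutathione. Of 8 genes of cysteine and glutathione metabolism, 5 were higher and none lower in LAN5, 3 higher and 2 lower in IMR5, and 6 higher and 1 lower in SK-N-FI. None was called in SK-N-BE(2), and none had an unadjusted p under 0.05 there. The shares of all genes tested were 22.5% higher and 19.2% lower in LAN5, 22.6% and 21.6% in IMR5, and 16.8% and 14.8% in SK-N-FI. For genes whose mean reached 100, counted above, both shares were larger. CTH, which makes cysteine from cystathionine, rose by 3.12 ± 0.164 (LAN5), 1.28 ± 0.101 (IMR5) and 1.78 ± 0.179 (SK-N-FI) per the authors' deposited tables. CHAC1, which degrades glutathione, rose by 3.71 ± 0.150, 1.297 ± 0.154 and 1.05 ± 0.201, and GSR, which reduces oxidized glutathione, by 1.16 ± 0.0762, 0.21 ± 0.0782 and 0.50 ± 0.136 in the authors' deposited tables. GCLM, the modifier subunit of the enzyme that starts glutathione synthesis, was singled out after its values were seen: it was called in all 3 sensitive lines, with 3.11 ± 0.109 (LAN5), -0.86 ± 0.0752 (IMR5) and 0.74 ± 0.105 (SK-N-FI) per the authors' deposited tables.

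Of 11 regulators known to act on the members, 10 were higher and 1 lower in LAN5, 7 higher and 2 lower in IMR5, and 8 higher and none lower in SK-N-FI. In SK-N-BE(2) none was called, and 3 had an unadjusted p under 0.05, against 10.3% of all genes. Among all genes tested, 22.5% were called higher and 19.2% lower in LAN5, 22.6% and 21.6% in IMR5, and 16.8% and 14.8% in SK-N-FI. Again both shares were larger for genes whose mean reached 100. The list was written with earlier results of these data known, so its counts are no independent evidence. ATF4 itself had 0.94 ± 0.0849 (LAN5), 0.71 ± 0.103 (IMR5) and 1.44 ± 0.135 (SK-N-FI) per the authors' deposited tables, the last being its largest value. The partner gene CEBPG had 0.71 ± 0.0698, 1.43 ± 0.0965 and 0.92 ± 0.0844, and CEBPB 1.53 ± 0.113, 2.75 ± 0.137 and 1.90 ± 0.205, in the authors' deposited tables. DDIT3 (CHOP) had 2.77 ± 0.159, 3.35 ± 0.275 and 2.21 ± 0.184, ATF3 2.54 ± 0.133, 3.22 ± 0.126 and 0.45 ± 0.122, and TRIB3, which is induced by ATF4 and restrains it, 4.30 ± 0.111, 5.003 ± 0.163 and 2.33 ± 0.156 in the authors' deposited tables. NFE2L2 had 0.48 ± 0.0614, 0.42 ± 0.0743 and 0.47 ± 0.1003 in the authors' deposited tables. The members of the list called lower were singled out for their direction: MYCN, with -1.90 ± 0.0488 in LAN5 (adjusted p given as 0) and -1.07 ± 0.0706 in IMR5 (4.38e-50), and KEAP1, which holds NFE2L2 in check, with -0.70 ± 0.0831 in IMR5 (5.96e-16) in the authors' deposited tables. KEAP1 was higher in LAN5 (0.47 ± 0.0731, adjusted p = 1.3e-09), and neither was called in SK-N-FI or SK-N-BE(2), where MYCN had -0.30 ± 0.203 and 0.11 ± 0.0391 in the authors' deposited tables. Of the 7 regulators called higher in all 3 sensitive lines 5 had their largest value in IMR5, whereas SLC7A11 had its own in LAN5, a comparison across genes that was not tested.

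Markers of the labelled cell type were present: all 7 neuroblastoma genes were listed in every table, with a summed mean of 1993 CPM (LAN5), 1294 (IMR5), 1251 (SK-N-FI) and 1981 (SK-N-BE(2)). They moved with the treatment, with 7 of 7 lower in LAN5, 2 higher and 4 lower in IMR5, 1 higher and 5 lower in SK-N-FI, and 4 lower in SK-N-BE(2). Of all genes tested, 22.5% were called higher and 19.2% lower in LAN5, 22.6% and 21.6% in IMR5, and 16.8% and 14.8% in SK-N-FI. The shares in SK-N-BE(2) were 1.62% and 0.858%. In the sensitive lines all 7 neuroblastoma genes had a mean past 100. Past that mean, 3141 genes were higher and 4330 lower of 11145 in LAN5, and 3690 and 3875 of 10864 in IMR5. In SK-N-FI the counts were 2722 and 2630 of 10909. The 5 fibroblast markers summed to 43.5, 69.9, 149.5 and 2054 CPM in the same order, with LUM at a mean normalized count of 19924 and DCN at 11860 in SK-N-BE(2) in the authors' deposited table. Of these markers 1 was higher and 3 lower in LAN5, 1 higher and 1 lower in IMR5, 2 higher and 2 lower in SK-N-FI, and 2 higher and 1 lower in SK-N-BE(2), and COL1A2 was not listed for IMR5. The Schwann and glial markers summed to 3.11 to 13.2 CPM, with SOX10 listed in no table. The immune and endothelial markers summed to 1.10 to 9.13 CPM, with PTPRC at a mean normalized count of 0.552 to 2.27 in the authors' deposited tables and CD3E listed for SK-N-BE(2) alone. The part of these shifts in the transporter results was not tested. In bulk samples fewer cells of a kind and less RNA per cell cannot be told apart.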

How the data were processed

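Strand-specific libraries (KAPA kit) were made from polyadenylated RNA, per the labels' protocols. FastQC, STAR, DESeq2 and the build hg38 are tools and a build listed without versions per the submitters' processing notes. The counting tool, annotation and strand setting were not given in the sources used here. No label says that replicates were separate cultures, so the p-values cover only variation among these libraries, possibly technical.

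Per the file headers, each deposited table gives a mean normalized count (here a signal column, averaged by the authors over the 6 libraries of a line), a log2 fold change and its log2 standard error as deposited, a Wald statistic (a score deposited by the authors), and the authors' p-values and adjusted p-values. The design foresaw such tables as a possible case, and the deposited test was used as it stands.

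The members, lists and tests were chosen with earlier results of these data known. Named outside the members were list genes called in 1 direction in all 3 sensitive lines, the 3 with the largest deposited change per line (mean of at least 100), and the 5 genes nearest to SLC7A11.

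A shrunken standard error peaks at a ceiling, the largest in its table (LAN5 0.539, IMR5 0.490, SK-N-FI 0.428, SK-N-BE(2) 0.0828), which equals 1/2 of the prior's SD. The equations of that prior were solved per gene, with the smaller-error solution above the mean where that error, as a running median of 500 genes, peaked (3.15, 4.01, 4.62 and 134) and the other below. Levels were solved from the mean and this fold change, scaled to 1000000 summed means (CPM), and divided by GENCODE 29 exon length where stated; gene coordinates are from GENCODE 29 on GRCh38. Differences used a Wald test (SciPy 1.17.1, pandas 2.3.3) that was tested on simulated data. The simulation drew noise from the errors used in the test, gave the sensitive lines the same effect and was told the right solution. It therefore could not check the choice of solution, the SK-N-BE(2) table or the spread between lines. Alternatives changed the thresholds, filters, prior, centring and lines. Comparisons of protein sequence were not analysed here.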

Additional observations from a re-analysis of the deposited data

Results flagged for a closer look

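The members below had a GSK-J4 effect that differed between lines by a test of the difference itself (two-sided Wald test on prior-removed log2 fold changes, Benjamini-Hochberg adjustment over 8969 genes); the explanation of none of them was tested. For the 3 sensitive lines minus SK-N-BE(2) the differences were 3.98 for SLC7A11, 2.34 for SLC3A2, 1.34 for SLC7A5, 1.13 for SLC1A5, 1.12 for SLC1A4, 0.50 for SLC7A1 and 0.20 for SLC38A1. For LAN5 minus IMR5 they were 1.98 for SLC7A11, 1.57 for SLC38A2, 1.13 for SLC1A4, 0.59 for SLC1A5, 0.35 for SLC38A1 and -0.30 for SLC7A1. For the mean of LAN5 and IMR5 minus SK-N-FI they were 1.88 for SLC7A11, 0.83 for SLC1A5, 0.82 for SLC1A4, 0.49 for SLC7A5, 0.40 for SLC7A1, -0.36 for SLC38A1 and -0.62 for SLC3A2. Differences were common among all genes compared: 26.4% were called higher and 32.7% lower in the first comparison, 27.3% and 33.6% in the second, and 18.9% and 28.4% in the third.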

How the results depend on the processing

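The counts of called transporters per line were within 1.5 times their main value at a threshold of 0.01 and with p-values adjusted again with or without a filter on low means. When a deposited log2 fold change of 1 or more in size was also required, the count of lower members in IMR5 went from 1 to 0 and that of higher members in SK-N-FI from 8 to 3. Without mitochondrially encoded genes in the total, the median untreated level of the members moved from 84.9 to 91.5 CPM in LAN5, from 76.9 to 81.0 in IMR5 and from 110.3 to 119 in SK-N-BE(2). The counts of called differences, 7, 6 and 7, ranged from 5 to 8 over the alternatives. SLC38A1 reversed to -0.26 (sensitive lines minus SK-N-BE(2)) with the other solution for every SK-N-BE(2) gene, chosen after seeing the data, and to -0.10 with IMR5 alone. SLC38A2 reversed to -0.65 with IMR5 alone minus SK-N-BE(2) and to 0.60 with LAN5 alone minus SK-N-FI, which follows from its opposite effects in LAN5 and IMR5; the cause of that opposition was not tested. With LAN5 alone minus SK-N-BE(2) SLC38A2 was called (0.93, 2.11e-09). With deposited fold changes SLC38A2 was called for the sensitive lines minus SK-N-BE(2) (0.30, adjusted p = 0.00209). Centring each line on its median gene called SLC3A2 for LAN5 minus IMR5 (0.32, adjusted p = 0.0341) and lost SLC38A1 for SK-N-FI (-0.28, 0.13). No paired analysis was possible because no values of single libraries were used; for the same reason a count model, other normalizations and leaving out replicates were not run. The files used give no depth, so precision rests on the deposited errors: for SLC7A1 in SK-N-FI a change was not detectable, and its interval includes no change.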
